A study of Mus musculus with 18 samples.

Results

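Mature miRNAs of mouse inner cell mass (ICM) outgrowths were compared between the second and the first day of culture. The comparison uses 4 of the 18 small-RNA libraries of a time course of embryonic stem cell (ESC) derivation, namely both libraries of day 2 and both libraries of day 1. All 4 share one background: blastocysts (E3.5) of superovulated NMRI mice were stripped of their outer layer by immunosurgery, and the isolated ICMs grew out on gelatin in R2i+LIF, LIF being leukemia inhibitory factor. R2i is a pair of inhibitors, PD0325901 against MEK and SB431542 against the type I receptors of activin and TGF-beta, so it is carried by both days and is not what is compared. The remaining 14 libraries (ICM on day 0, outgrowths of days 0.5, 3 and 5, and ESCs with 3 passage codes) were used only where stated. The table lists 1390 miRNAs, of which 767 were at 0 in all 4 libraries and 367 were tested, being above the detection floor in at least 2 of the 4.

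The ICM is the cell group of the blastocyst that forms the embryo proper, and its outgrowth in such a medium is the usual route to naive pluripotent cell lines. A miRNA is a short RNA, cut from a hairpin precursor, that lowers the output of messenger RNAs which pair with its seed, bases 2 to 8 from its 5′ end. miRNAs with the same seed are thought to share many targets, and hairpins lying close together are often cut from one transcript. In mouse pluripotent cells the miR-290-295 cluster is the best known source of miRNAs. The miR-302/miR-367 cluster is known from the later, primed epiblast, and let-7 miRNAs are known for accumulating as cells differentiate.

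The miRNAs on which the comparison turns are shown with the seed in capitals, 5′ to 3′, from the RefSeq table for GRCm38.p6. The first set holds the 4 tested miRNAs with the seed AUUGCAC, shown because they share a seed and yet moved by different amounts:
miR-363-3p: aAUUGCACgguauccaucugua
miR-92a-3p: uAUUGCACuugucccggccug
miR-92b-3p: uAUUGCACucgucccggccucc
miR-25-3p: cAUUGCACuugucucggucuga
The second set carries the core AAGUGC, which links the X-linked miR-106a family, the miR-302 family and the miR-290-295 cluster, and is shown because the members fall on both sides of no change:
miR-106a-5p: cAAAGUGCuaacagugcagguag
miR-20b-5p: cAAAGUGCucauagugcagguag
miR-302b-3p: uAAGUGCUuccauguuuuaguag
miR-302d-3p: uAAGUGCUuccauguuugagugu
miR-294-3p: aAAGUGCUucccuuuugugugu
miR-295-3p: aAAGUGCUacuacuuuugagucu
The third set gives both arms of the miR-293 hairpin, the one hairpin whose arm ratio was called:
miR-293-5p: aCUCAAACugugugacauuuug
miR-293-3p: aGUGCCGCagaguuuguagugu
The last set gives miRNAs from other places that carried large or abundant changes:
miR-2137: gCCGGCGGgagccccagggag
miR-340-5p: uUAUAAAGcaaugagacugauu
miR-3473d: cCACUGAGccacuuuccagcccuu
let-7e-5p: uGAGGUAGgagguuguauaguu
let-7f-5p: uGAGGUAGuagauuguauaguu
miR-668-3p: uGUCACUCggcucggcccacuacc
miR-541-5p: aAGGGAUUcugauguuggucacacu
miR-341-5p: cGGUCGGCcgaucgcucgguc

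Levels are the normalised counts deposited by the authors, rounded to whole numbers. The low values of each library were evenly spaced, and the spacing gave an estimated depth of 234000 and 236000 reads on day 2, against 177000 and 337000 reads on day 1. All 4 libraries are shallow: the lowest listed value equalled 5 reads in each, for which counting alone gives an error of 44.7%. Values were therefore raised to a detection floor of 27.2 normalised counts, the worth of 5 reads where depth was lowest among the libraries of days 0 to 3. Replicates correlated across the 367 tested miRNAs at a Pearson r of 0.974 on day 2 and 0.969 on day 1, and pairs of libraries from different days at 0.904 to 0.918. Those coefficients describe miRNAs, which are not independent replicates. The labels do not say whether replicates are separate cultures, so the p-values measure only the spread between replicate libraries. That spread was taken over the 10 libraries of days 0 to 3 in the fit, not over the 4 compared alone. In whole outgrowths, fewer cells of a type and less of a miRNA per cell cannot be told apart.

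On day 2, 33 miRNAs were higher than on day 1 (8.99% of those tested) and 35 were lower (9.54%), together 18.5% of the 367, by limma with Benjamini-Hochberg adjustment at 0.05. The median change over all tested miRNAs was 0.05 on the log2 scale, and 120 miRNAs had an unadjusted p under 0.05. The called rises ran from 0.65 to 2.69 on the log2 scale and the called falls from -0.62 to -3.80. Called miRNAs with identical values are miR-486-5p and miR-3107-5p among the rises and miR-669a-3p and miR-669o-3p among the falls. Each pair counts as a single observation. Both day 2 libraries lay above both day 1 libraries for 123 miRNAs (33.5%) and below both for 121 (33.0%). The split between rises and falls depends on how the libraries are scaled: after setting all libraries to the same total it was 12 higher and 40 lower, since the median of all miRNAs then moved to -0.17. The rises are thus relative to that shift.

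The fit was repeated without each of the 4 libraries in turn. Each such fit leaves a day with a single library and has less power. Here and below, a call lost in such a fit therefore need not lean on the library left out. All 68 kept their direction when any one of the 4 libraries was left out, while 8 remained below 0.05 in all 4 of those fits. The 8 are the rises of miR-363-3p and miR-106a-5p and the falls of miR-3473d, miR-2137, miR-340-5p, miR-293-5p, miR-147-3p and miR-6982-5p. A further 11 remained in some of those fits and 49 in none, so each call outside the 8 was lost without at least 1 of the 4 libraries. Without 1 library there were 3 to 6 rises and 7 to 11 falls. Of the tested miRNAs, 40 were above the floor on one day only. For these the filter fixed the direction, and 11 of the 68 calls are of this kind, among them 3 of the 8 (miR-106a-5p, miR-3473d and miR-6982-5p). The spread of these 3 on their low day was set partly or wholly by the floor. Values at the floor in ICM and on day 0.5 likewise add no spread to the pooled fit. There miR-106a-5p had means of 0 and 0 and miR-363-3p means of 0 and 8.5, with every value under the floor. The SE and adjusted p of both thus rest partly on the floor.

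**Figure D1:**
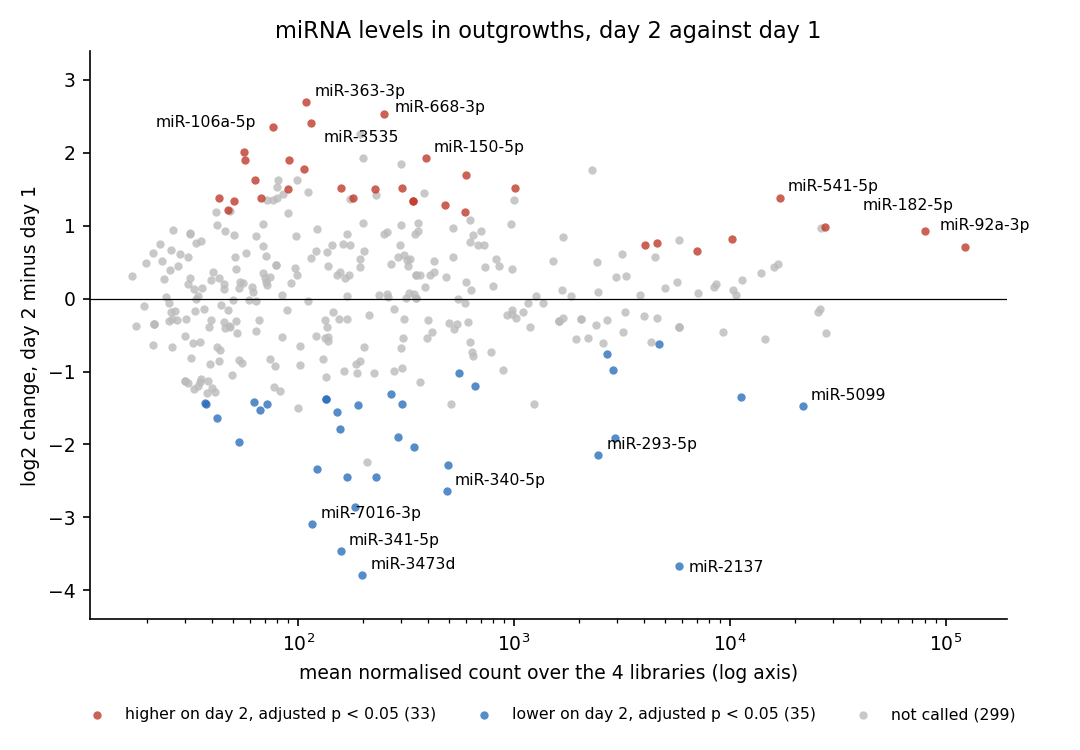
Each point is 1 of the 367 tested miRNAs, placed by its mean normalised count over the 4 libraries (log axis) and its log2 change, day 2 minus day 1. The 33 called rises and 35 called falls are coloured. Falls beyond -3 include the abundant miR-2137, while the most abundant miRNAs, miR-92a-3p and miR-182-5p, changed by less than 1.

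Of the 8 calls that held without any one library, the fall of miR-2137 had the most reads behind it. This miRNA, whose hairpin lies in an intron of Zfp185 at chrX:72992079-72992144 (GRCm38, + strand), had 938 and 756 normalised counts on day 2, against 10831 and 10619 on day 1. The days are far apart relative to their replicates, and the fall was 12.7-fold (log2 change -3.67, SE 0.27, limma adjusted p = 0.000151). miR-340-5p, from an intron of Rnf130 on chromosome 11, had 96 and 181 normalised counts on day 2, against 973 and 698 on day 1. It fell 6.25-fold (log2 change -2.64, SE 0.33, limma adjusted p = 0.00189). miR-147-3p, from an exon of AA467197 and known in mouse macrophages as a miRNA induced by Toll-like receptor signals, had 119 and 125 normalised counts on day 2, against 528 and 388 on day 1. Its log2 change was -1.89 (SE 0.29, limma adjusted p = 0.00667).

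Several miRNAs of day 1 were listed at 0 in both day 2 libraries. miR-3473d, from an intron of Ddx19b on chromosome 8, was at 0 and 0 on day 2, against 278 and 513 normalised counts on day 1, so it was at least 13.9-fold lower, counting day 2 at the floor. miR-341-5p was at 0 and 0 on day 2, against 219 and 411 on day 1, at least 11.0-fold lower. miR-7016-3p, from an intron of Tmem39b on chromosome 4, was at 0 and 0 on day 2, against 231 and 233 on day 1, at least 8.53-fold lower. All of these were above the floor on day 1 only, so that the filter fixed their direction. The limma adjusted p was 0.000786 for miR-3473d, 0.00667 for miR-341-5p and 0.0119 for miR-7016-3p, with the spread of day 2 set by the floor and not measured. The day 1 values correspond to 56 to 258 reads, so they are well above the detection limit. Without 1 library the adjusted p of miR-341-5p ran from 0.0235 to 0.0562 and that of miR-7016-3p from 0.0593 to 0.0717.

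The other miRNAs among the 12 largest falls were of low to middle abundance. miR-714, miR-1946a, miR-3473b, miR-5108 and miR-1934-5p had log2 changes between -2.28 and -2.85, with day 2 levels of 33 to 235 normalised counts against 145 to 993 on day 1. Their groups did not overlap, but counting is coarse here: the 2 day 2 libraries of miR-5108 rest on 12 and 11 reads. miR-101a-3p, known for repressing the histone methyltransferase Ezh2, had 188 and 94 normalised counts on day 2, against 614 and 483 on day 1. It fell 4.10-fold (limma adjusted p = 0.0118, and 0.0143 to 0.0699 without 1 library). Among these 6, miR-5108 kept its call in 1 of the 4 fits without a library, as did miR-101a-3p, and the others in none.

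miR-363-3p had the largest rise. It had 201 and 181 normalised counts on day 2, against 20 and 32 on day 1, a rise of 6.47-fold on the floored scale (log2 change 2.69, SE 0.32, limma adjusted p = 0.00189). Its day 1 values rest on 5 and 16 reads. miR-363-3p is cut from a cluster on the X chromosome that also encodes miR-20b, miR-18b and miR-106a, a paralog of the miR-17-92 cluster known for promoting proliferation. miR-106a-5p, from the same cluster, had 142 and 136 normalised counts on day 2, against 27 and 0 on day 1 (log2 change 2.35, SE 0.32, limma adjusted p = 0.00299). miR-20b-5p had 122 and 84 on day 2, against 20 and 0 on day 1 (log2 change 1.90, limma adjusted p = 0.0183, and 0.0533 to 0.0850 without 1 library). Within chrX:52741693-52742567 (GRCm38, - strand), 3 of the 4 tested miRNAs were called higher, beside 8.99% of all tested miRNAs. miR-106a-5p and miR-20b-5p were above the floor on day 2 only, so that the filter fixed their direction.

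Outside the X-linked cluster, no miRNA of the related clusters was called by limma, apart from miR-92a-3p. The X-linked and the chromosome 14 clusters both encode miR-92a-3p. In the list of miR-17-92 and paralogous clusters, 4 of 19 tested miRNAs of 28 in the table were higher (21.1%) and 0 lower, with a median of 0.40. Of all tested miRNAs, 8.99% were called higher. For 2 of the 4, miR-106a-5p and miR-20b-5p, the filter fixed the direction. Beside these and miR-363-3p, the fourth is miR-92a-3p, whose 2 copies the table does not split. It had 150861 and 153458 normalised counts on day 2, against 96599 and 89332 on day 1 (log2 change 0.71, SE 0.16, limma adjusted p = 0.0245). Of the chromosome 14 cluster, both arms of miR-17 and miR-18a with miR-19a-3p, miR-20a-5p and miR-92a-1-5p had changes between -0.84 and 0.55 and no unadjusted p under 0.05. miR-19b-3p, also of this list, had 453 and 453 on day 2, against 379 and 344 on day 1, and was not called (log2 change 0.33). The 6 of the miR-106b/miR-93/miR-25 cluster on chromosome 5 had a median of 0.24 with no call, and miR-93-3p and miR-25-5p had an unadjusted p under 0.05. Without 1 library, miR-363-3p and miR-106a-5p were the 2 members still called.

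Among the miRNAs with the AUUGCAC seed printed above, miR-363-3p was the rarest and changed most, and miR-92a-3p was the most abundant miRNA of all. miR-92b-3p had 33266 and 36603 normalised counts on day 2, against 16589 and 19032 on day 1, a log2 change of 0.97 that was not called (SE 2.14, adjusted p = 0.769). Its spread comes from another stage: it was at 0 in one ICM library and at 4651 in the other. With the 4 libraries of days 1 and 2 alone its adjusted p was 0.0138. miR-25-3p had 1906 and 1791 on day 2, against 1716 and 1896 on day 1, and its groups overlapped.

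**Figure D2:**
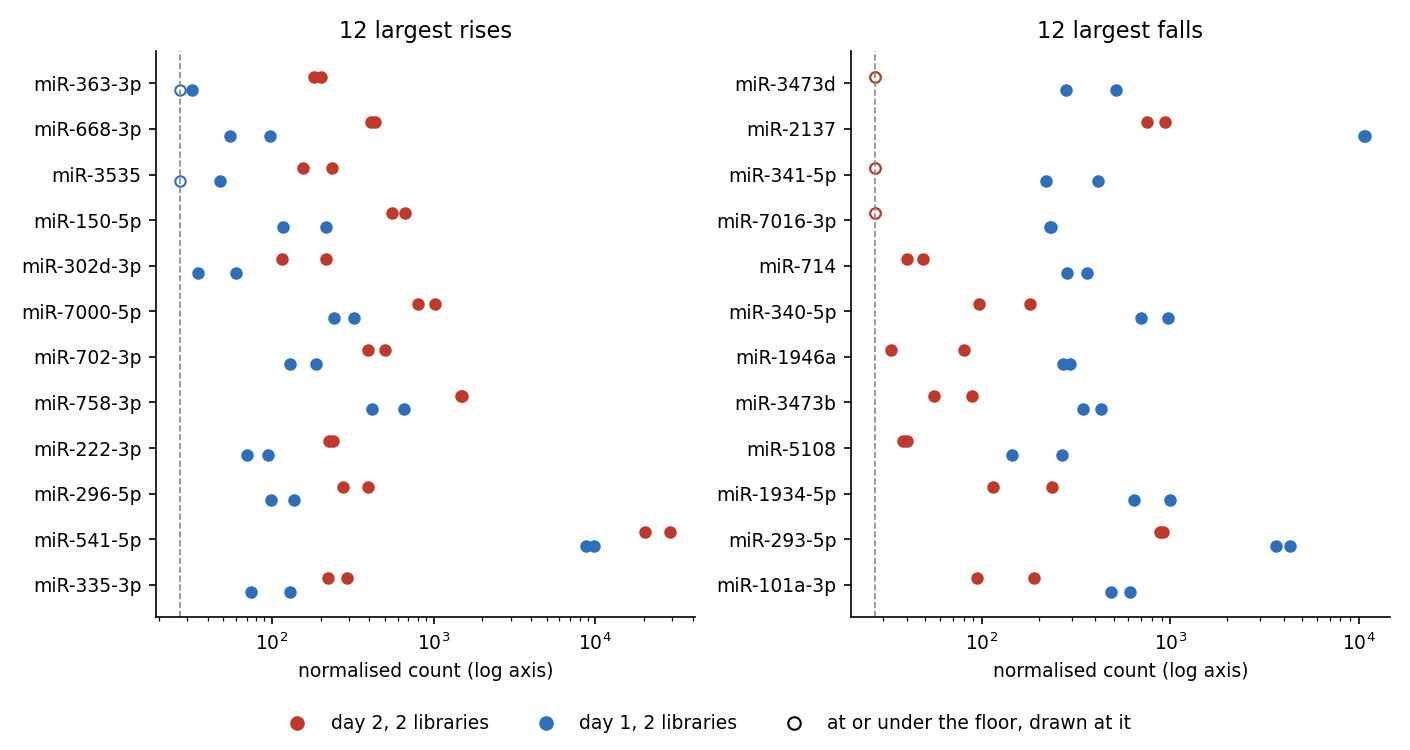
Normalised counts (log axis) of the 12 miRNAs with the largest called rises and the 12 with the largest called falls. Only miRNAs with a mean of at least 100 normalised counts over the 4 libraries were eligible, so some larger rises of rarer miRNAs are not drawn. Each miRNA has 2 points for day 2 above 2 points for day 1, open where the value was at or under the floor of 27.2 (dashed line). The days do not overlap in any of the 24, which the naming rule required.

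The miR-302/miR-367 cluster, known from primed epiblast, was low on both days and higher on day 2. Of its 9 miRNAs in the table, 4 were at 0 in all 4 libraries (both arms of miR-302c, miR-302b-5p and miR-367-3p), and 1 more, miR-302d-5p, did not pass the filter. The 4 tested were called higher, beside 8.99% of all tested miRNAs, with a median log2 change of 1.50. However, miR-302a-5p was above the floor on day 2 only, so that the filter fixed its direction. miR-302d-3p had 215 and 115 normalised counts on day 2, against 35 and 60 on day 1 (log2 change 1.78, SE 0.45, limma adjusted p = 0.0342). miR-302b-3p had 116 and 80 on day 2, against 20 and 36 on day 1 (log2 change 1.62, SE 0.40, limma adjusted p = 0.0299). miR-302a-3p had 73 and 91 on day 2, against 0 and 38 on day 1, and miR-302a-5p had 50 and 101 on day 2, against 20 and 0 on day 1. In the other 3 too both day 2 libraries lay above both day 1 libraries, but the day 1 values rest on at most 30 reads. Together the 9 miRNAs held 0.0620% and 0.0496% of the normalised counts on day 2, against 0.0109% and 0.0269% on day 1. The calls were fragile: with libraries set to the same total 0 remained, and with the 4 libraries of days 1 and 2 alone 0 remained. Without 1 library the median log2 change was 1.39 to 1.70. In ICM and on day 0.5, miR-302b-3p and miR-302a-5p had means of 0, so the floor also lowers the pooled spread of these miRNAs.

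The miR-290-295 cluster at chr7:3218626-3220841, the main pluripotency cluster in mouse, held 10.6% and 8.89% of the normalised counts on day 2, against 14.5% and 12.7% on day 1. Of its 16 miRNAs, 14 were tested, 0 were higher and 1, miR-293-5p, was lower (7.14%), with a median of -0.31. Of all tested miRNAs, 9.54% were called lower. miR-293-5p had 882 and 910 normalised counts on day 2, against 4339 and 3651 on day 1, a fall of 4.44-fold (log2 change -2.15, SE 0.19, limma adjusted p = 0.000395). Other abundant members had smaller changes that were not called, the first 2 given here carrying the AAGUGC core. miR-295-3p had 24556 and 22086 on day 2, against 35731 and 28908 on day 1 (log2 change -0.47, adjusted p = 0.117). miR-294-3p had 1797 and 1335 on day 2, against 2529 and 2055 on day 1 (log2 change -0.56, adjusted p = 0.132). miR-292-5p had 25054 and 22634 on day 2, against 28816 and 25547 on day 1 (log2 change -0.19, adjusted p = 0.434). All 3 were lower in both day 2 libraries than in both day 1 libraries.

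Taking the AAGUGC core as a group, 4 of the 13 tested miRNAs of 15 were higher (30.8%) and 0 lower, with a median of -0.22. Of all tested miRNAs, 8.99% were called higher and 9.54% lower. The 4 were miR-106a-5p, miR-20b-5p, miR-302b-3p and miR-302d-3p. Among them, miR-106a-5p and miR-20b-5p were above the floor on day 2 only, so that the filter fixed their direction. The 4 that rose had 80 to 215 normalised counts on day 2, while miR-295-3p alone had over 22000. The summed level of the group was therefore lower on day 2, at 30728 and 27155 normalised counts against 43053 and 34753 on day 1.

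The fall of miR-293-5p was not shared by the other arm of its hairpin. miR-293-3p had 2950 and 2739 normalised counts on day 2, against 2083 and 1922 on day 1 (log2 change 0.51, adjusted p = 0.0998). On the log2 scale, 5p over 3p was -1.74 and -1.59 on day 2, against 1.06 and 0.93 on day 1, so that the 3p arm was the more abundant on day 2 and the 5p arm on day 1. This ratio does not depend on the scaling of libraries, and it changed by -2.66 (SE 0.47, limma adjusted p = 0.00604). It was the one call among 39 hairpins with both arms above the floor in all 4 libraries (2.56%), of which 6 had an unadjusted p under 0.05. Without day 1 replicate 1 the adjusted p was 0.0623 and without day 2 replicate 1 it was 0.0635. The next 4 by p were not called. miR-296 had a ratio of 0.94 and -0.13 on day 2, against -1.28 and -1.99 on day 1 (adjusted p = 0.0729), and miR-669a had 2.35 and 2.42 on day 2, against 0.87 and 0.50 on day 1 (adjusted p = 0.115). The ratio of miR-17 changed by 1.21 and that of miR-106b by -1.49, both at an adjusted p of 0.123.

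**Figure D3:**
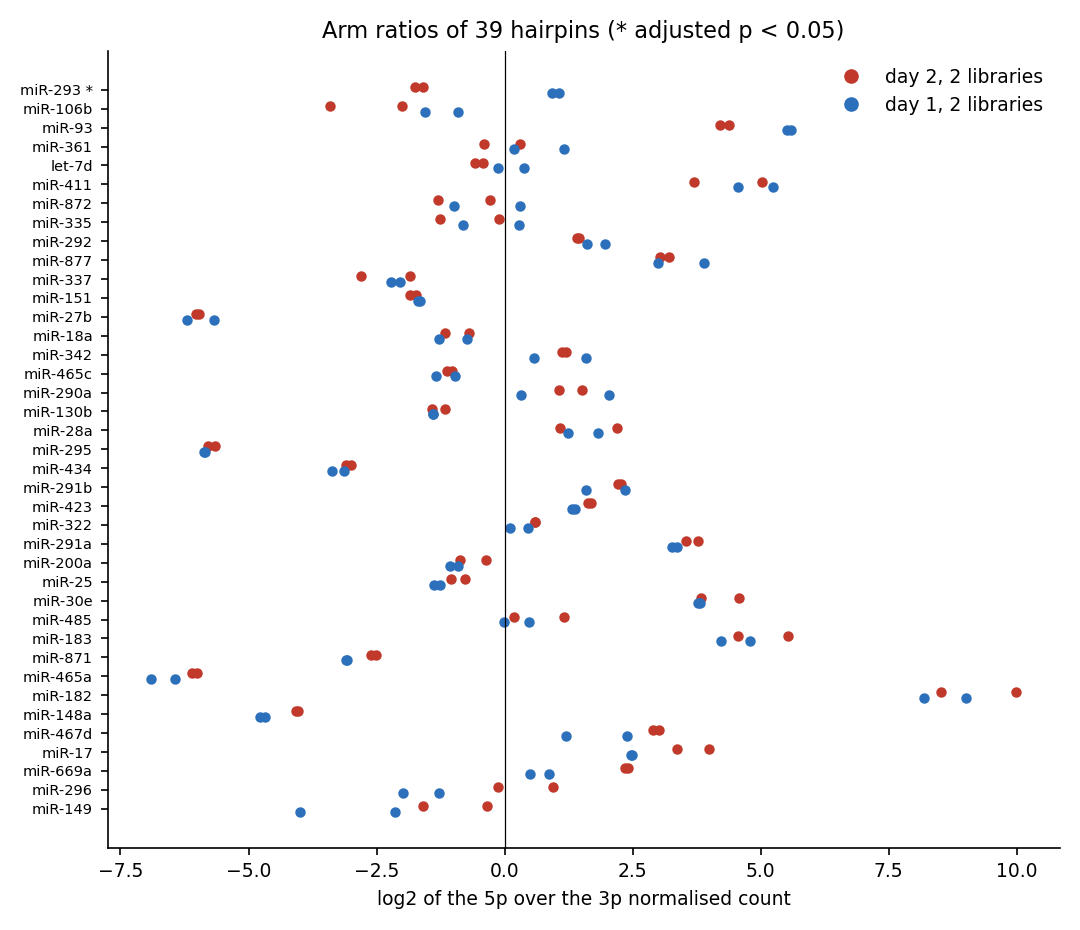
The 5p arm over the 3p arm (log2) in each library, for the 39 hairpins with both arms above the floor in all 4 libraries, ordered by their change. Points for day 2 stand above those for day 1. For miR-293 the day 2 points lie below 0 and the day 1 points above it.

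The Dlk1-Dio3 region on chromosome 12, an imprinted domain whose miRNAs are cut from maternally expressed transcripts, had many miRNAs that were higher on day 2. Of 107 miRNAs in the table, 49 were tested, 10 were higher (20.4%) and 1 was lower (2.04%), with a median of 0.74, beside 0.05 over all 367. In 34 of the 49 both day 2 libraries lay above both day 1 libraries, beside 33.5% of all tested miRNAs, and 8.99% of all were called higher. The 10 were miR-668-3p, miR-369-5p, miR-758-3p, miR-541-5p, miR-667-3p, miR-673-5p, miR-381-3p, miR-434-3p, miR-540-3p and miR-409-3p. Together the region held 7.74% and 8.42% of the normalised counts on day 2, against 4.96% and 4.87% on day 1. With libraries set to the same total the median was 0.51, with 3 higher and 1 lower. With the 4 libraries of days 1 and 2 alone 17 were higher and 1 lower, and with all 18 libraries 19 were higher and 3 lower. Without 1 library the median was 0.66 to 0.84, but 0 or 1 of its miRNAs was still called higher.

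miR-541-5p, the most abundant miRNA of the region, had 20212 and 29179 normalised counts on day 2, against 9842 and 8793 on day 1, a rise of 2.61-fold (log2 change 1.38, SE 0.32, limma adjusted p = 0.0273). miR-668-3p, at chr12:109734732-109734797 in an exon of the long non-coding RNA Mirg, had 413 and 432 on day 2, against 55 and 97 on day 1. It rose 5.78-fold (log2 change 2.53, SE 0.54, limma adjusted p = 0.0198). miR-758-3p had 1500 and 1474 on day 2, against 653 and 417 on day 1 (log2 change 1.51, limma adjusted p = 0.0361). The second most abundant, miR-409-3p, had 8179 and 8971 on day 2, against 5265 and 5662 on day 1 (log2 change 0.65, limma adjusted p = 0.0299). The days did not overlap in any of these 4, but the day 2 replicates of miR-541-5p and the day 1 replicates of miR-668-3p and miR-758-3p lay well apart. miR-127-3p, known for lying antisense to the imprinted gene Rtl1, had 1490 and 1377 on day 2, against 496 and 630 on day 1, and was not called (log2 change 1.36, adjusted p = 0.188).

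The calls within the region were counted by position, beside 8.99% called higher and 9.54% called lower over all tested miRNAs. The stretch chr12:109709060-109743795 holds 28 tested miRNAs from 25 hairpins, of which 7 were higher and 0 lower, with a median of 0.79. The stretch chr12:109585789-109595388 holds 13 from 8 hairpins, of which 2 were higher and 0 lower, with a median of 0.74. The single fall, miR-341-5p, lies between them at chr12:109611500-109611595, in an intron of Rian. The other arm, miR-341-3p, had means of 491.5 on day 2 and 790 on day 1, a log2 change of -0.73 that was not called.

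**Figure D4:**
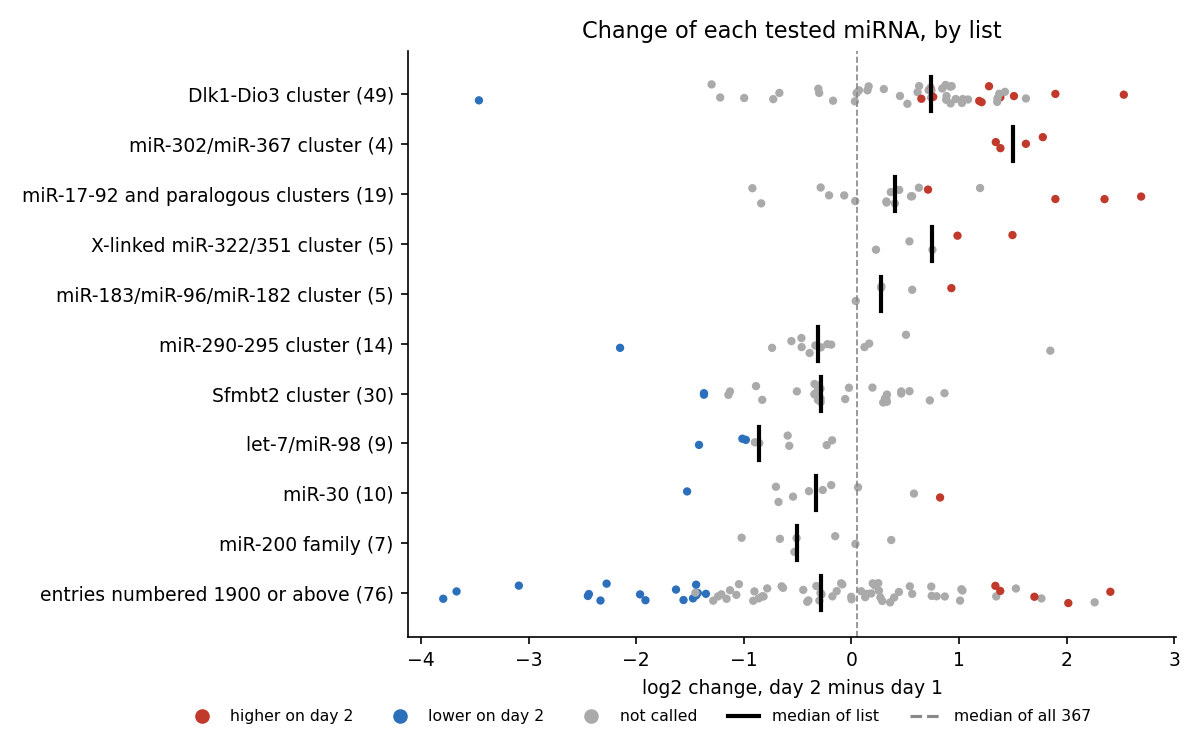
Log2 change, day 2 minus day 1, of each tested miRNA in 11 lists, with the number tested in brackets. Black bars mark list medians, and the dashed line is the median of all 367. The Dlk1-Dio3 median is 0.74 and the let-7/miR-98 median -0.86.

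let-7 miRNAs, whose maturation is blocked by Lin28 in pluripotent cells, included 3 that were lower on day 2. Of 19 miRNAs of the let-7/miR-98 list, 9 were tested, 0 were higher and 3 lower, with a median of -0.86 and no positive change among the 9. let-7f-5p had 1754 and 2105 normalised counts on day 2, against 3702 and 3893 on day 1 (log2 change -0.98, SE 0.19, limma adjusted p = 0.0131). let-7e-5p had 386 and 352 on day 2, against 692 and 801 on day 1 (log2 change -1.01, SE 0.23, limma adjusted p = 0.0245). miR-98-5p, which shares the seed GAGGUAG, had 43 and 24 on day 2, against 86 and 97 on day 1 (log2 change -1.42, limma adjusted p = 0.0455). let-7a-5p had 456 and 537 on day 2, against 696 and 801 on day 1, and was not called (adjusted p = 0.105). In 7 of the 9 both day 2 libraries lay below both day 1 libraries, beside 33.0% of all tested miRNAs, of which 9.54% were called lower. The list held 0.428% and 0.456% of the counts on day 2, against 0.898% and 0.997% on day 1. Without 1 library the median was -0.70 to -0.86 and 0 of the 3 calls remained. miR-125a-5p and miR-99b-5p, encoded beside let-7e on chromosome 17, had log2 changes of 0.81 and 0.62 that were not called.

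Many of the falls came from miRNAs with high registry numbers. Numbers were given in order of registration, so these are the later entries. Of the 669 miRNAs numbered 1900 or above, 76 were tested, 5 were higher (6.58%) and 16 were lower (21.1%), with a median of -0.28, beside 8.99% higher and 9.54% lower over all tested miRNAs. Of these 21 calls, 7 were above the floor on one day only, so that the filter fixed their direction. Among the 5 rises, miR-3107-5p has the same values as miR-486-5p, which is counted below as a blood marker. They held 7.92% and 6.50% of the normalised counts on day 2, against 13.5% and 15.4% on day 1. miR-5099, the most abundant of them, had 9837 and 13328 on day 2, against 31458 and 32102 on day 1, a fall of 2.78-fold (log2 change -1.47, limma adjusted p = 0.0365). miR-5126 had 6930 and 5775 on day 2, against 14900 and 17534 on day 1 (log2 change -1.35, limma adjusted p = 0.0159). miR-5130, from an exon of Kctd12, had 1440 and 1039 on day 2, against 4995 and 4261 on day 1 (log2 change -1.92, limma adjusted p = 0.0299). All 3 had days far apart relative to their replicates, but without 1 library their adjusted p ran from 0.0593 to 0.182. Without 1 library, 3 to 6 of the 76 were called lower.

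Not every later entry was lower. miR-3968, the second most abundant, had 13625 and 10954 on day 2, against 9240 and 11444 on day 1, and the days overlapped. miR-7000-5p, from an intron of Mapk8ip1, had 1021 and 802 on day 2, against 242 and 320 on day 1 (log2 change 1.70, limma adjusted p = 0.0424). miR-3535 had 155 and 237 on day 2, against 20 and 48 on day 1 (log2 change 2.41, limma adjusted p = 0.0204). miR-1981-3p had 89 and 136 on day 2, against 0 and 0 on day 1, at least 4.04-fold higher, with its direction fixed by the filter.

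Base composition differed somewhat between the directions. The 28 called rises with a RefSeq sequence had a median GC content of 47.9%, the 25 called falls with one 54.5%, and all tested miRNAs with one 50.0%. miR-2137 has 85.7% GC and miR-5126 100%, while miR-340-5p, also lower, has 27.3%. The part of base composition in the changes was not tested.

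Most of the largest rises outside these groups were single miRNAs. miR-150-5p, known from lymphocytes as a repressor of Myb, had 667 and 554 normalised counts on day 2, against 117 and 217 on day 1 (log2 change 1.93, SE 0.41, limma adjusted p = 0.0198). miR-222-3p, known for repressing the cell cycle inhibitor Cdkn1b, had 238 and 227 on day 2, against 70 and 95 on day 1 (log2 change 1.51, limma adjusted p = 0.0361). miR-296-5p, described in mouse ESCs as a repressor of Nanog, had 393 and 275 on day 2, against 137 and 99 on day 1 (log2 change 1.50, limma adjusted p = 0.0245). All 3 had groups that did not overlap. miR-335-3p, hosted by an intron of Mest, an imprinted gene, had 221 and 293 on day 2, against 74 and 129 on day 1 (log2 change 1.38, limma adjusted p = 0.0424). miR-702-3p, from an exon of Plod3, had 396 and 502 on day 2, against 188 and 129 on day 1 (log2 change 1.52, limma adjusted p = 0.0299). Without 1 library the adjusted p of these 5 ran from 0.0355 to 0.208, and miR-150-5p kept its call in 1 of the 4 fits.

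The 10 most abundant miRNAs held 55.7% and 58.5% of the normalised counts on day 2, against 48.6% and 47.2% on day 1, so that both day 2 libraries were the more concentrated. miR-92a-3p alone held 19.5% and 18.7% on day 2, against 14.0% and 13.4% on day 1. miR-182-5p, of a cluster with miR-183 and miR-96, had 92428 and 117500 normalised counts on day 2, against 57339 and 52231 on day 1. That is 11.9% and 14.3% of the counts on day 2, against 8.30% and 7.81% on day 1 (log2 change 0.93, SE 0.27, limma adjusted p = 0.0463). miR-351-5p, from an X-linked cluster with miR-322 and miR-542, had 33718 and 39238 on day 2, against 19036 and 17712 on day 1 (log2 change 0.99, SE 0.26, limma adjusted p = 0.0361). The day 2 libraries were the higher in each. Of the rest of the 10, miR-541-5p and miR-5099 are given above, and miR-423-5p and miR-191-5p were not called, with log2 changes of -0.15 and 0.48.

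The clusters that encode these abundant miRNAs were read as lists. The cluster of miR-351 had 5 of 13 miRNAs tested, 2 higher (miR-351-5p and miR-542-3p) and 0 lower, with a median of 0.75. In all 5 both day 2 libraries lay above both day 1 libraries, beside 33.5% of all tested miRNAs, of which 8.99% were called higher. With libraries set to the same total, 1 of the 5 was called and 4 had a positive change. Its miR-322-5p had 1031 and 913 on day 2, against 719 and 620 on day 1 (log2 change 0.54, adjusted p = 0.178). The cluster of miR-182 had 5 of 6 miRNAs tested and 1 higher, with a median of 0.28. Its miR-183-5p had 5159 and 5507 on day 2, against 3369 and 3854 on day 1 (log2 change 0.57, adjusted p = 0.476).

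The remaining lists held few calls. The miR-30 family had 10 of 11 tested, 1 higher and 1 lower (10.0% each). Of all tested miRNAs, 8.99% were called higher and 9.54% lower. miR-30d-5p had 11829 and 14304 on day 2, against 8341 and 6469 on day 1 (log2 change 0.82, limma adjusted p = 0.0361), while miR-30a-3p had 40 and 24 on day 2, against 133 and 68 on day 1 (log2 change -1.53, limma adjusted p = 0.0467). miR-30e-5p had a change of -0.27 and was not called. The Sfmbt2 cluster is a repeat-rich array in an intron of Sfmbt2 on chromosome 2. It had 30 of 62 tested, 0 higher and 2 lower (6.67%), with a median of -0.29. The 2 are miR-669a-3p and miR-669o-3p, which have the same values in every library, 73 and 77 on day 2 against 180 and 209 on day 1, so they count as 1 observation. Other miRNAs of this cluster also have identical values, such as miR-466b-3p, miR-466c-3p and miR-466p-3p. The 30 tested and their median thus count some values more than once. The abundant miR-466e-3p and miR-466p-3p of this cluster had changes of -0.29 and -0.31 without a call.

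No miRNA was called in the other families by limma, where miR-125a-5p, miR-130b-3p, miR-130b-5p and miR-34c-5p had an unadjusted p under 0.05. The miR-200 family (7 of 9 tested, median -0.51) had miR-200b-3p at 1202 and 1359 on day 2, against 1270 and 1222 on day 1, and miR-429-3p at 165 and 146 on day 2, against 231 and 262 on day 1. In miR-23/miR-27/miR-24 (3 of 8 tested, median -0.61), miR-27b-3p had 2061 and 2025 on day 2, against 2881 and 3375 on day 1, and miR-23b-3p overlapped between days. In miR-125/miR-99/miR-100 (4 of 10 tested, median 0.64), miR-125a-5p had 6900 and 7950 on day 2, against 4444 and 4015 on day 1 (adjusted p = 0.128). In miR-130/miR-301 (5 of 8 tested, median 0.40), miR-130a-3p had 1159 and 1080 on day 2, against 872 and 821 on day 1 (adjusted p = 0.215), and miR-301a-3p changed by 0.17. miR-34c-5p was at 46 and 59 on day 2, against 0 and 0 on day 1 (adjusted p = 0.115), so the filter fixed its direction. miR-34a-5p overlapped between days. The medians of miR-26 (0.05), the miR-15/miR-16 list (0.22), miR-148/miR-152 (0.10) and miR-181 (-0.14) were near 0, and the first 3 turned negative with libraries set to the same total (-0.19, -0.01 and -0.14). Their leading members miR-26a-5p, miR-26b-5p, miR-16-5p, miR-15b-5p, miR-148a-3p, miR-148b-3p, miR-181d-5p and miR-181c-5p changed by between -0.35 and 0.32. No miR-29 was tested, and of miR-221/miR-222 only miR-222-3p was.

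Markers of other cell types were looked at beside these changes. Of all tested miRNAs, 8.99% were called higher and 9.54% lower. Of 8 blood miRNAs, 3 were tested and 2 were higher, miR-150-5p and miR-486-5p. miR-486-5p had 410 and 572 on day 2, against 192 and 191 on day 1, values shared with miR-3107-5p from the opposite strand of the same locus. The summed blood markers held 1437 and 1436 normalised counts on day 2, against 528 and 667 on day 1, while the erythroid miR-451a and miR-144-5p were at 0 in all 4 libraries and the myeloid miR-223-3p was at 0 in all but one. Of 11 fibroblast and smooth muscle miRNAs, 4 were tested and 1, miR-143-3p, was lower, with 165 and 143 on day 2, against 332 and 437 on day 1. miR-145a-5p, miR-214-3p and miR-199a-5p were at 0 in all 4 libraries, and miR-10b-5p had 13130 and 18305 on day 2, against 11926 and 12440 on day 1. The summed level of that list was 14359 and 18860 on day 2, against 12992 and 13469 on day 1. Neural markers (3 of 10 tested) and endoderm and liver markers (3 of 5 tested) had no call by limma, with an unadjusted p under 0.05 for 2 and 1 of them. miR-128-3p had 264 and 157 on day 2, against 356 and 435 on day 1 (adjusted p = 0.0731), and miR-192-5p had 575 and 620 on day 2, against 1212 and 1139 on day 1 (adjusted p = 0.0707). miR-124-3p and the hepatic miR-122-5p were at 0 in all 4, and the striated muscle list summed to 0 and 31 on day 2, against 0 and 30 on day 1. The part of other cell types in the changes was not tested.

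The values of the other outgrowth days and of ICM are given for 6 of the called miRNAs. miR-363-3p was at 0 and 0 in ICM, at 17 and 0 on day 0.5, 20 and 32 on day 1, 201 and 181 on day 2, 486 and 471 on day 3, and 1026 and 1144 on day 5. miR-541-5p was at 3796 and 3746 in ICM, 4371 and 2904 on day 0.5, 9842 and 8793 on day 1, 20212 and 29179 on day 2, 45413 and 24756 on day 3, and 26339 and 39050 on day 5. Its level was higher on day 1 than on day 0.5 already. miR-2137 was at 6564 and 4161 in ICM, 17870 and 21116 on day 0.5, 10831 and 10619 on day 1, 938 and 756 on day 2, 601 and 883 on day 3, and 1427 and 1227 on day 5. It was thus highest on day 0.5 and lower on day 1 already, and its values of days 2 and 3 overlap. miR-340-5p was at 1332 and 1330 in ICM and at 168 and 168 on day 3, close to its level on day 2. miR-3473d was at 528 and 595 in ICM, 490 and 736 on day 0.5, 278 and 513 on day 1, 0 and 0 on days 2 and 3, and 91 and 44 on day 5, where libraries are deeper. miR-293-5p was at 3328 and 3284 in ICM, 3299 and 3612 on day 0.5, 4339 and 3651 on day 1, 882 and 910 on day 2, 1236 and 1685 on day 3, and 1957 and 1263 on day 5. These levels are a description, with no test between other days.

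**Figure D5:**
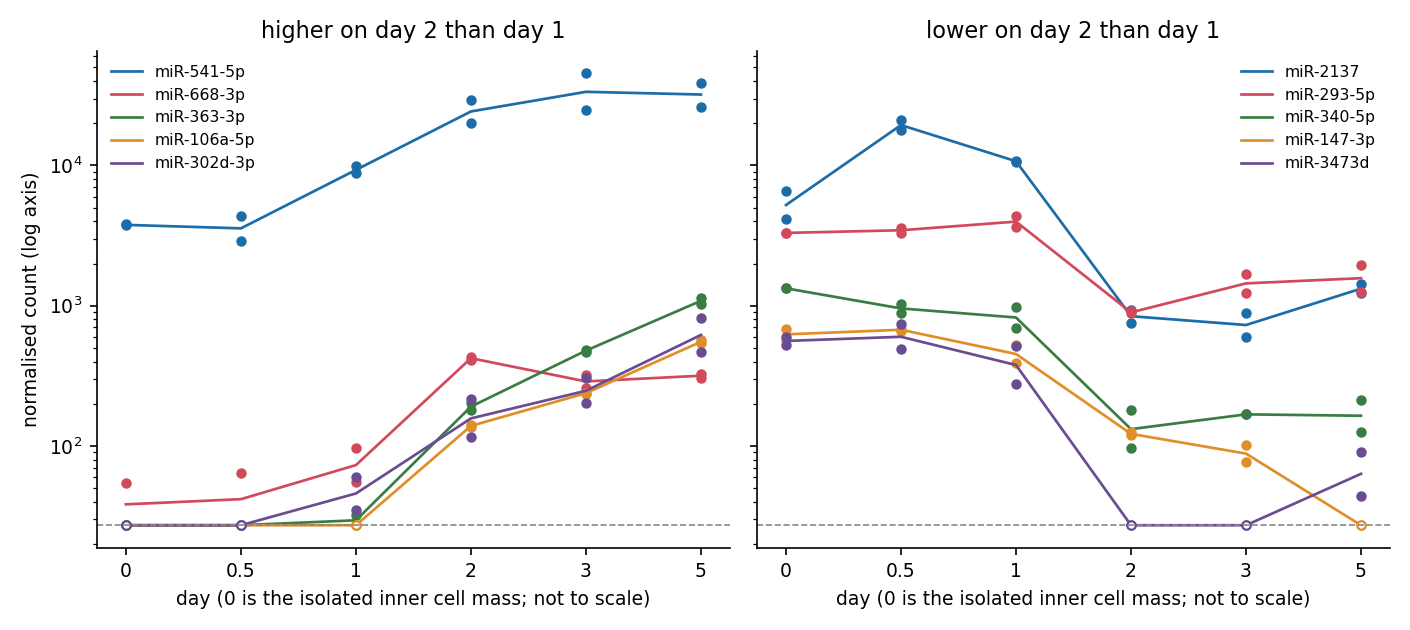
Normalised counts (log axis) of 5 miRNAs that were called higher and 5 called lower on day 2 than on day 1, in both libraries of ICM (day 0) and of outgrowth days 0.5 to 5, with lines through the geometric means. Open points are at or under the floor of 27.2, drawn at it. The 10 were picked for their calls between these 2 days. None of the 5 lower miRNAs had returned to its day 1 level by day 5. That does not hold for all called falls. miR-143-3p, not drawn, had means of 384.5 on day 1, 154 on day 2 and 649.5 on day 5.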

How the data were processed

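The deposited table holds 1 score per mature miRNA and library, a normalised count that the authors rounded to a whole number. Cutadapt, DESeq2 1.30.0 and the mm10 build are named, per the submitters' processing notes, with no role for each. How reads were aligned and counted, and against which annotation, is not given in the sources used here. Columns were joined to libraries by the description label, or by title for day 0. No library was left out of the table, and no replicate pair matched within sampling noise (chi-square per miRNA of 13.5 on day 2 and 9.71 on day 1).

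Depth was estimated by searching, in each library, for the step on which values below 1000 fall within 0.5, and dividing the total by it. Values under 27.2, the floor of 5 reads in the shallowest library, were raised to it before taking log2. A miRNA was tested when above the floor in at least 2 of the 4 libraries, and the tested miRNAs hold at least 99.4% of all normalised counts. With its trend and robust options, limma 3.58.1 (R 4.3.3) was fitted to the 10 libraries of days 0 to 3 (5 group means, 5 residual degrees of freedom), with the contrast day 2 minus day 1 and Benjamini-Hochberg adjustment over all miRNAs tested at a threshold of 0.05. Arm ratios were tested likewise over 39 hairpins. A fold change is between geometric means of floored values, so it understates changes of low miRNAs, and against a day at 0 it is a lower bound.

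Named miRNAs are the 12 largest called rises and falls with a mean of at least 100 normalised counts and no overlap between days, the 10 most abundant, the 2 most abundant of each list and the 5 arm ratios of lowest p. Other named miRNAs were picked after their values were seen. The comparison, lists and members were chosen with earlier results of these data known. Of the 367 tested miRNAs, 356 were placed on GRCm38 by GENCODE vM21 and 294 had a RefSeq sequence (GRCm38.p6).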

Additional observations from a re-analysis of the deposited data

How the results depend on the processing

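The counts of rises and falls depend on the setting, and the cause was not tested unless stated. They were 11 rises on values as deposited with 1 added, 10 rises and 13 falls with no filter, 58 and 54 with all 18 libraries, and 12 rises with libraries set to the same total, which lowers every change. Apart from the replicate block below and the fits without 1 library, both counts stayed within 1.5 times under the remaining settings. Leaving out 1 library gave 3 to 6 rises, 7 to 11 falls and 0 to 2 arm ratios; arm ratios numbered 4 with all 18 libraries and 3 with the 4 libraries of days 1 and 2. All 68 called miRNAs kept their direction except miR-92a-3p and miR-182-5p under quantile normalization, which gives the first 2 ranks equal values in all libraries by construction, so their change is 0.

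With the replicate number as a block, 20 rises and 28 falls were called. The labels do not say whether same-numbered libraries of the 2 days share more than a number. Their deviations from the day means correlated at 0.017 over the 367 miRNAs.

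The direction turned for miRNAs that were not called. With libraries set to the same total the changes were -0.197 for miR-25-3p, -0.195 for miR-200b-3p, -0.009 for miR-16-5p, -0.156 for miR-26a-5p, -0.214 for miR-26b-5p, -0.188 for miR-181c-5p, -0.059 for miR-301a-3p, -0.225 for miR-199b-3p and -0.012 for miR-128-1-5p. With median-ratio scaling they were -0.037 for miR-25-3p, -0.035 for miR-200b-3p, -0.054 for miR-26b-5p, -0.029 for miR-181c-5p and -0.065 for miR-199b-3p, and with quantile normalization -0.052 for miR-26a-5p and -0.060 for miR-199b-3p. Without 1 library the change ran from -0.037 to 0.107 for miR-25-3p, -0.052 to 0.126 for miR-200b-3p, -0.289 to 0.548 for miR-34a-5p, -0.175 to 0.809 for miR-23b-3p, -0.180 to 0.216 for miR-26b-5p, -0.382 to 0.106 for miR-181d-5p, -0.357 to 0.443 for miR-181c-5p, -0.678 to 0.691 for miR-199b-3p and -0.021 to 0.460 for miR-128-1-5p.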
